A study of Mus musculus with 6 samples.

Results

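The hexosamine pathway genes and a partner in sugar nucleotide supply were followed through tunicamycin treatment of mouse intestinal epithelium. The set held 5 genes of the 27998 in the deposited matrix, taken by symbol for their enzymatic roles: Gfpt1, Gnpnat1, Pgm3, Uap1 and Gmppb. They were chosen with earlier results of these data known, so counts of called members beside the share of all genes are descriptions only. Single-cell RNA sequencing with 10x Genomics 3' V2 chemistry had been run on differentiated monolayers from intestinal organoids, in 3 groups of 2 libraries. Monolayers received DMSO alone, or tunicamycin (0.5 µg/ml) over the last 13 h or the last 25 h before harvest. The longer treatment began on differentiation day 3, the 13 h monolayers were in DMSO until their tunicamycin started, and harvest fell on day 4 for all. Every group, DMSO included, was labelled as coming from Rosa26-floxed STOP-Cas9 mice crossed with cmv-cre on B6, grew in 5% L-WRN conditioned medium and passed through a kit that removes dead cells. The labels disagree on the origin, colonic spheroids in the growth protocol against small intestine in the tissue field, and no animal age was among the labels used.

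The hexosamine pathway turns fructose 6-phosphate, glutamine, acetyl-CoA and UTP into UDP-N-acetylglucosamine (UDP-GlcNAc), the activated sugar that starts N-linked glycans and that also feeds O-GlcNAc, mucin-type glycans and sialic acid. Gfpt1 encodes the rate-limiting aminotransferase, Gnpnat1 the acetyltransferase, Pgm3 the phosphate mutase and Uap1 the pyrophosphorylase that attaches UMP. Gmppb encodes the catalytic subunit of the enzyme that makes GDP-mannose, the other sugar nucleotide that cytosolic N-glycan assembly consumes. Tunicamycin resembles UDP-GlcNAc and blocks Dpagt1, the enzyme that uses it in the first step of that assembly, so that unglycosylated proteins accumulate in the endoplasmic reticulum (ER). In other mouse tissues, the stress factor XBP1 is known to raise transcription of Gfpt1 and other genes of the pathway.

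On GRCm38 (mm10), Gfpt1 (ENSMUSG00000029992) lies at chr6:87042846-87092197 on the plus strand and Gnpnat1 (ENSMUSG00000037722) at chr14:45376334-45404913 on the minus strand. Pgm3 (ENSMUSG00000056131) lies at chr9:86554377-86571842 on the minus strand, and Uap1 (ENSMUSG00000026670) at chr1:170141938-170174957 on the minus strand. Gmppb (ENSMUSG00000070284) occupies chr9:108049242-108052801 on the plus strand. A 3' tag library reads the end of each transcript, and the 3' ends of Gnpnat1, Pgm3 and Gmppb overlap genes on the opposite strand, Styx, Dop1a and Rnf123. Gnpnat1 had 13158, Pgm3 1141 and Gmppb 3931 unique molecular identifiers (UMIs, each a counted molecule) over all libraries, against 48 for Styx, 1519 for Dop1a and 761 for Rnf123. Whether reads were assigned by strand is not stated in the labels used here, so Pgm3, which had fewer UMIs than its neighbour, is the member whose count this could touch most. The end of Gnpnat1 was 99.8% identical to Gm14698 over an alignment of 501 positions. Reads from there could be assigned to either gene or to neither, so the counts of Gnpnat1 are to that extent uncertain. Gfpt1 and Uap1 had 13709 and 10590 UMIs and no such overlap or copy was found for them.

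Because Gfpt1 and its pathway partners changed to such different degrees, the DNA upstream of their start sites is shown. RefSeq promoter sequence (GRCm38.p6) was matched for 3 of the 5 members, Gfpt1, Pgm3 and Uap1, and was not matched for Gnpnat1 and Gmppb. Each line gives the 250 bases before the start site, 5′ to 3′ on the gene's strand, from chr6:87042596-87042845 for Gfpt1, chr9:86571843-86572092 for Pgm3 and chr1:170174965-170175214 for Uap1. Capitals mark CCACGT, the core shared by binding sites of the ER stress factors XBP1 and ATF6.
Gfpt1: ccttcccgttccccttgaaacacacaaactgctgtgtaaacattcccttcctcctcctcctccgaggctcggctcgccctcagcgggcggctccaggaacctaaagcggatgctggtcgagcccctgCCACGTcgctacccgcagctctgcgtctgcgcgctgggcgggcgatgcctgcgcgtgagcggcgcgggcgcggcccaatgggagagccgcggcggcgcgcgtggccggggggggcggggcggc
Pgm3: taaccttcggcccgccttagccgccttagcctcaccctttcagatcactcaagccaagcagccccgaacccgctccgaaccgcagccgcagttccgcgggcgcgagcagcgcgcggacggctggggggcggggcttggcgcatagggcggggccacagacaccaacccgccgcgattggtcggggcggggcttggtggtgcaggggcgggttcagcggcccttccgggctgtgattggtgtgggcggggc
Uap1: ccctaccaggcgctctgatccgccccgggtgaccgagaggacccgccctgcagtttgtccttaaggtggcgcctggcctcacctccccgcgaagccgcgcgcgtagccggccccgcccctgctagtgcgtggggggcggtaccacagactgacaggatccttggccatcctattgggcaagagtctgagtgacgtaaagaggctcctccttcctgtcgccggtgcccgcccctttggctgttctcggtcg
The core CCACGT stood 123 to 118 bases before the start of Gfpt1 and at bases 23 to 28 after the start of Pgm3, outside the line shown. The letters TGACGTG, the core of the unfolded protein response element, lay at bases 1 to 7 after the RefSeq start base of Uap1. That start base lies 7 bases upstream of the GENCODE end of the gene given above. The last of these letters is thus the first base of the GENCODE gene, and the others lie upstream of it. The starts of Gfpt1 and Pgm3 are the same in both annotations. The motifs share letters when read on opposite strands, so a single stretch can match both. Over 32851 RefSeq promoters, searched on both strands in windows from 250 bases before to 50 after the start, CCACGT was present in 8.31% and TGACGTG in 2.01%. The full ER stress elements, spelled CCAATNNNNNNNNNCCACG, and ATTGG with CCACG after 1 further base, were present in 0.119% and 0.0365% of promoters and in none of the 3 members' windows. The element TGATGNAA, bound by ATF4 with C/EBP proteins, was present in 3.97% of promoters and again in none of the 3. The 3 printed stretches were rich in G and C, at 72.0% for Gfpt1, 71.6% for Pgm3 and 67.2% for Uap1.

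The authors' deposited matrix held 5122 cells, each named by library, barcode and an assigned class (enterocyte, goblet or tuft), and 5026 cells were kept. Libraries held between 9462248 and 19772274 deposited UMIs, with medians of 14465 to 17298 UMIs per kept cell, and 12 barcodes occurred in more than a single library. Kept cells per library were 1178 and 1165 for DMSO, 780 and 821 for 13 h of treatment, and 537 and 545 for 25 h. Goblet cells made up 8.91% and 9.36% of DMSO cells, 9.87% and 9.14% after 13 h, and 18.2% and 15.8% after 25 h. Mitochondrial UMIs took 8.99% and 9.00%, then 8.43% and 8.84%, then 7.52% and 7.24%. Of the classes, goblet cells carried far more of the 9 goblet markers, in counts per 1000000 UMIs (CPM), than enterocytes, which had 2347 to 3923 CPM in all libraries. The sum in goblet cells was 196562 and 183076 CPM under DMSO, 113133 and 121278 CPM after 13 h, and 79281 and 95634 CPM after 25 h, so it was lower in every treated library. The 10 enterocyte markers did not separate the classes as sharply, at 3228 and 3190 CPM in DMSO goblet cells and 3954 and 3958 CPM in DMSO enterocytes, though Slc26a3, Car4 and Aqp8 had no UMI in goblet cells. In enterocytes this sum was lower in treated libraries too, at 2404 and 2234 CPM after 13 h and 1675 and 1828 CPM after 25 h, and the part of these marker changes in the values of the members was not tested. The fibroblast genes Col1a2, Col3a1 and Dcn and the leukocyte genes Ptprc and Cd3e had no UMI in any class. As a check of the treatment, Hspa5, the main ER chaperone, averaged 4914 ± 113 CPM at 13 h and 220 ± 34.8 CPM in DMSO (SD, n = 2 each; all cells). Dpagt1, the target of the drug, was 1.12 ± 0.08 higher on the log2 scale at 13 h (edgeR, adjusted p = 5.78e-07).

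In enterocytes, the most numerous class, 13 h of tunicamycin raised the first enzyme of the pathway most, the acetyltransferase and the GDP-mannose enzyme less, and the last enzyme was not called. Gfpt1 stood at 247.8 and 253.6 CPM at 13 h, against 94.8 and 99.2 CPM in DMSO. Both 13 h libraries were far above both DMSO libraries, and the change was 1.37 ± 0.05 on the log2 scale (SE), or 2.59-fold (edgeR quasi-likelihood test, adjusted p = 1.91e-11). Gnpnat1 stood at 172.0 and 182.8 CPM at 13 h, against 117.0 and 119.3 CPM in DMSO. The groups did not overlap, and the rise was 0.59 ± 0.05 (edgeR, adjusted p = 3.43e-07). Gmppb had 54.7 and 53.6 CPM at 13 h, against 34.6 and 33.7 CPM in DMSO, and rose by 0.67 ± 0.06 (edgeR, adjusted p = 5.91e-07).

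Pgm3 was the scarcest member in UMIs, with 96 to 185 per library in enterocytes. It reached 12.2 and 13.9 CPM at 13 h, against 10.7 and 10.6 CPM in DMSO, and rose by 0.29 ± 0.11 (edgeR, adjusted p = 0.0398). This call was lost under 8 of 14 alternative settings, with adjusted p up to 0.363 when 13 h replicate 2 was left out, 0.257 in DESeq2, and 0.132 and 0.160 without DMSO replicate 1 or 2. It was also lost without 25 h replicate 1, at an adjusted p of 0.0539. Uap1, the enzyme of the closing step, had 120.8 and 120.9 CPM at 13 h, against 125.0 and 128.6 CPM in DMSO. Its libraries differed little, the change was -0.07 ± 0.04, and the 95% interval ran from -0.17 to 0.03 (edgeR, adjusted p = 0.224). In cells of at most 10% mitochondrial UMIs, Uap1 passed as lower at 13 h, at -0.21 (adjusted p = 0.00502). All 5 members passed the filter on low counts, and 4 of the 5 members were called higher and 0 lower, where 23.8% of the 11145 genes tested in enterocytes were called higher.

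**Figure D1:**
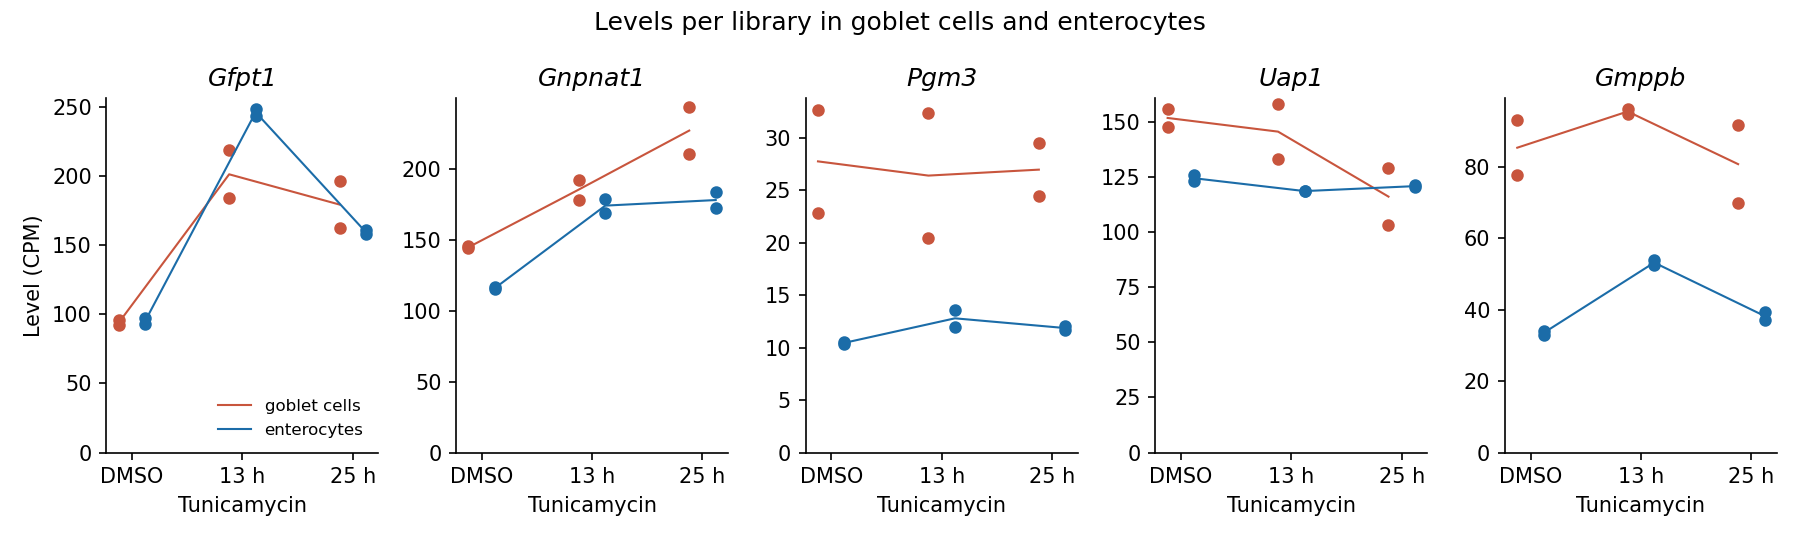
Levels of the 5 members in CPM (vertical axes, from 0) in DMSO and after 13 h and 25 h of tunicamycin (horizontal axes), for goblet cells and enterocytes scaled together. Points are single libraries and lines join the means of 2 libraries. Gfpt1 peaks at 13 h in enterocytes at a mean of 246 CPM, Gnpnat1 is highest at 25 h in goblet cells at 227 CPM, and Uap1 in enterocytes stays between 118 and 126 CPM.

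At 25 h the enterocyte pattern was no longer led by Gfpt1 to the same degree, and Gnpnat1 held its rise. Gfpt1 had 165.8 and 163.4 CPM at 25 h, against 94.8 and 99.2 CPM in DMSO, a rise of 0.76 ± 0.05 on the log2 scale (edgeR, adjusted p = 1.37e-08). Gnpnat1 had 189.7 and 178.4 CPM at 25 h, against 117.0 and 119.3 CPM in DMSO, a rise of 0.64 ± 0.05 (edgeR, adjusted p = 1.48e-07). For both genes every 25 h library was above every DMSO library. Gmppb had 40.7 and 38.4 CPM at 25 h, against 34.6 and 33.7 CPM in DMSO, and its rise was 0.21 ± 0.07 (edgeR, adjusted p = 0.0193). That call was lost under 6 of 14 settings, with an adjusted p of 0.357 in cells of at most 10% mitochondrial UMIs, 0.196 in DESeq2, and 0.199, 0.0719 and 0.131 without 25 h replicate 1, DMSO replicate 1 or DMSO replicate 2.

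Pgm3 and Uap1 were not called at 25 h in enterocytes. Pgm3 had 12.1 and 12.5 CPM at 25 h, against 10.7 and 10.6 CPM in DMSO, a difference of 0.20 ± 0.12 (edgeR, adjusted p = 0.185). Uap1 had 125.1 and 124.8 CPM at 25 h, against 125.0 and 128.6 CPM in DMSO, and the groups overlapped. Its difference was -0.02 ± 0.05 with a 95% interval of -0.12 to 0.08 (edgeR, adjusted p = 0.737). The count was 3 of 5 members higher and 0 lower, where 26.1% of genes tested were called higher.

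Set against each other directly, 25 h and 13 h differed in enterocytes for 2 members, Gfpt1 and Gmppb, both lower at 25 h, where 10.9% of genes tested were called lower. Gfpt1 fell by 0.61 ± 0.05 on the log2 scale, to 165.8 and 163.4 CPM at 25 h, against 247.8 and 253.6 CPM at 13 h (edgeR, adjusted p = 8.03e-07). Gmppb fell by 0.46 ± 0.07, to 40.7 and 38.4 CPM at 25 h, against 54.7 and 53.6 CPM at 13 h (edgeR, adjusted p = 2.06e-04). At 25 h both genes remained above their DMSO libraries. Gnpnat1 overlapped between the times, and its difference of 0.05 ± 0.05 was not called (edgeR, adjusted p = 0.518). Differences of Pgm3 at -0.09 ± 0.12 and Uap1 at 0.05 ± 0.05 were not called either (edgeR, adjusted p = 0.656 and 0.521).

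Goblet cells, the mucus-secreting class, spend large amounts of UDP-GlcNAc on mucin glycans. At 13 h, Gfpt1 had 182.3 and 215.4 CPM in tunicamycin-treated goblet cells, against 88.2 and 92.0 CPM in DMSO goblet cells. The groups stood apart and the rise was 1.14 ± 0.15 on the log2 scale, or 2.20-fold (edgeR, adjusted p = 8.22e-06). Gnpnat1 had 176.8 and 189.7 CPM at 13 h, against 137.8 and 140.0 CPM in DMSO, a rise of 0.40 ± 0.13 (edgeR, adjusted p = 0.0315). This second call was lost in DESeq2 (adjusted p = 0.197) and on leaving out any DMSO or 13 h library: 0.151 and 0.125 without DMSO replicate 1 and 2, 0.0777 and 0.172 without 13 h replicate 1 and 2. It was lost too, at an adjusted p of 0.0832, when the UMIs of the near-identical Gm14698 were added.

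Gmppb, Uap1 and Pgm3 were not called in goblet cells at 13 h. Gmppb had 95.3 and 93.5 CPM at 13 h, against 89.1 and 74.7 CPM in DMSO, a difference of 0.21 ± 0.16 (edgeR, adjusted p = 0.413). Uap1 overlapped between the groups, with 131.9 and 155.8 CPM at 13 h, against 141.1 and 150.2 CPM in DMSO. Pgm3 rested on 22 to 40 UMIs per library and its groups overlapped as well. The 2 called members compare with 10.8% of the 7839 genes tested in goblet cells that were called higher.

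After 25 h, goblet cells held Gfpt1 at 161.7 and 197.8 CPM, against 88.2 and 92.0 CPM in DMSO, a rise of 0.99 ± 0.15 (edgeR, adjusted p = 2.45e-05). Gnpnat1 reached 242.8 and 211.9 CPM at 25 h, against 137.8 and 140.0 CPM in DMSO, and rose by 0.71 ± 0.12 (edgeR, adjusted p = 1.73e-04). These were the 2 members called higher, where 15.8% of genes tested were. Uap1 went the other way in value, with 128.5 and 104.0 CPM at 25 h, against 141.1 and 150.2 CPM in DMSO, but its difference of -0.32 ± 0.14 was not called (edgeR, adjusted p = 0.0929; 95% interval -0.62 to -0.02). Without 25 h replicate 1 that difference was -0.49 and passed, at an adjusted p of 0.0490. Gmppb, at 91.3 and 70.4 CPM, and Pgm3, at 24.4 and 29.7 CPM, overlapped their DMSO values. Between 25 h and 13 h, 0 of the 5 members were called in goblet cells by edgeR, where 3.5% of genes tested were called in either direction, and Gnpnat1 came nearest at 0.31 ± 0.12 (adjusted p = 0.196).

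**Figure D2:**
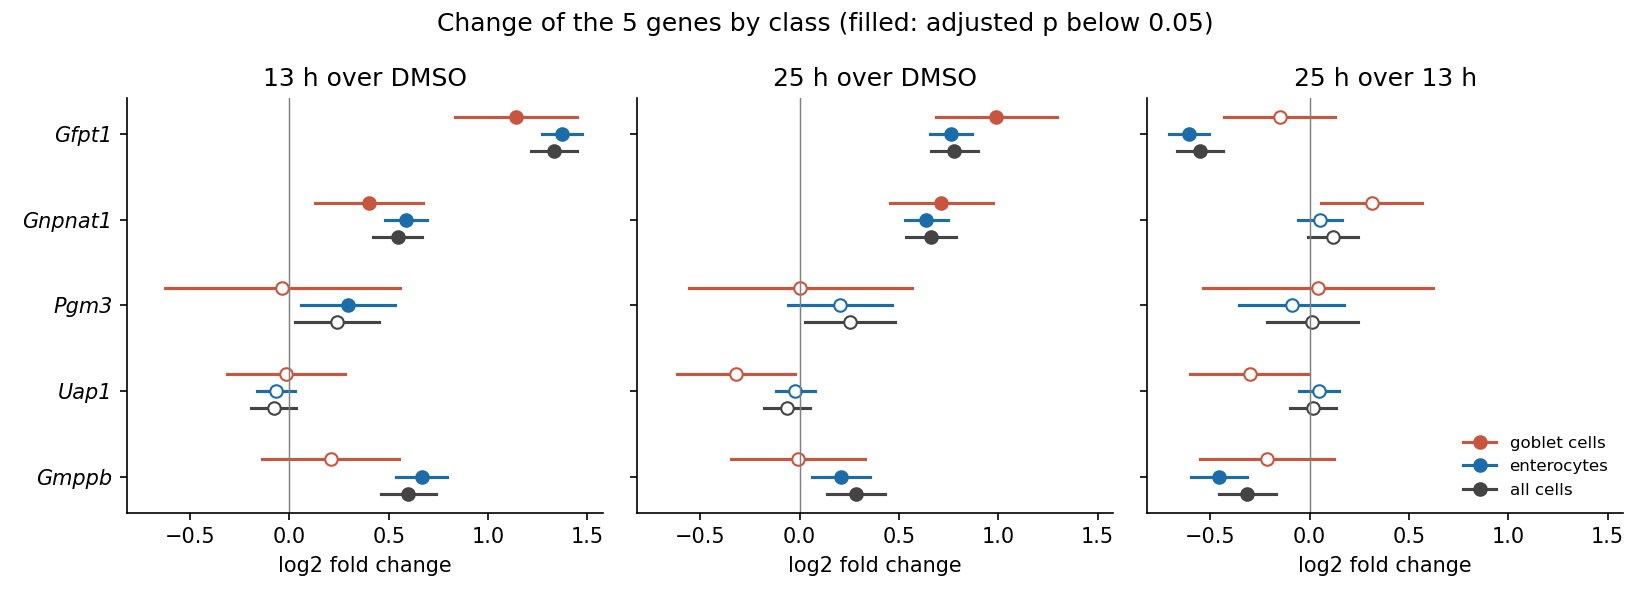
Log2 fold changes (horizontal axes) of the 5 members (rows) in the 3 comparisons (panels), for goblet cells, enterocytes and all cells, with bars for 95% intervals of the edgeR fits. Filled points passed an adjusted p of 0.05. Against DMSO, Gfpt1 lies farthest to the right, from 0.76 to 1.37, while Uap1 lies left of 0, from -0.02 to -0.32, and was not called.

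Summed over all kept cells, the same members were called as in enterocytes except Pgm3. At 13 h, Gfpt1 rose by 1.33 ± 0.05, Gnpnat1 by 0.55 ± 0.06 and Gmppb by 0.60 ± 0.06 on the log2 scale (edgeR, adjusted p = 2.58e-09, 1.07e-05 and 1.09e-05). These 3 of 5 compare with 21.4% of the 11474 genes tested that were called higher. At 25 h, Gfpt1 rose by 0.78 ± 0.05, Gnpnat1 by 0.66 ± 0.06 and Gmppb by 0.29 ± 0.07 (edgeR, adjusted p = 2.55e-07, 1.72e-06 and 0.00385), again 3 of 5 where 24.5% were called higher. At 25 h against 13 h, Gfpt1 and Gmppb were lower, with log2 changes of -0.55 ± 0.05 and -0.31 ± 0.07 (edgeR, adjusted p = 2.85e-05 and 0.00627), 2 of 5 where 9.6% of genes were called lower. Pgm3 had 14.2 and 14.3 CPM at 13 h, against 11.6 and 12.5 CPM in DMSO, and its 0.24 ± 0.10 just missed the threshold (edgeR, adjusted p = 0.0603).

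The share of goblet cells, in which Gmppb was higher, moved with the 25 h group, and its part in the value of Gmppb over all cells was not tested. In enterocytes alone, the value of Gmppb at 25 h was 0.21. Its all-cell call at 25 h was lost without 25 h replicate 1 (adjusted p = 0.0586) and in cells of at most 10% mitochondrial UMIs (0.0508), and its fall between the times was lost without 25 h replicate 2 (-0.23, adjusted p = 0.0619). Pgm3 passed over all cells when libraries were scaled by total count, at 0.32 for both times (adjusted p = 0.0165 at 13 h and 0.0203 at 25 h), and at 13 h also with DESeq2 size factors in edgeR, at 0.26 (adjusted p = 0.0487). Total count scaling raised the median change of all genes as well, by 0.08 at 13 h and 0.07 at 25 h. The opposite-strand neighbour of Pgm3, Dop1a, was 0.46 higher at 13 h over all cells (edgeR, adjusted p = 6.55e-04), and the part of its reads in the value of Pgm3 was not tested. Gm14698, the copy of the Gnpnat1 end, differed by 0.05 at 13 h and was 0.33 higher at 25 h (edgeR, adjusted p = 0.667 and 0.00936).

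Before treatment the classes already differed in some members. With goblet cells and enterocytes scaled together, Gmppb had 93.0 and 77.6 CPM in DMSO goblet cells, against 34.0 and 33.0 CPM in DMSO enterocytes. That is 2.54-fold, or 1.34 ± 0.13 on the log2 scale (edgeR with the sample as a block, adjusted p = 5.14e-11). Pgm3 had 22.8 and 32.7 CPM in goblet cells, against 10.6 and 10.3 CPM in enterocytes, 2.66-fold or 1.41 ± 0.23 (edgeR, adjusted p = 2.79e-06). Every goblet value of these genes lay above every enterocyte value.

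Gnpnat1 and Uap1 were higher in DMSO goblet cells by smaller steps of 0.32 ± 0.09 and 0.29 ± 0.10 (edgeR, adjusted p = 0.00671 and 0.0195). Both calls were lost with scaling by total count (0.15 and 0.12), in cells of at most 10% mitochondrial UMIs, and without DMSO replicate 1 (adjusted p = 0.101 and 0.134) or DMSO replicate 2 (0.158 and 0.272). Uap1 also lost its call without 25 h replicate 1 (adjusted p = 0.0949) and with no filter on low counts (adjusted p = 0.0629). In all, Gnpnat1 lost its call under 4 and Uap1 under 6 of 10 settings. Gfpt1 had 92.2 and 95.5 CPM in goblet cells, against 93.3 and 97.1 CPM in enterocytes, and the difference of -0.02 ± 0.11 was not called (edgeR, adjusted p = 0.918; 95% interval -0.25 to 0.21). Members higher in goblet cells were 4 of 5, where 17% of the 10458 genes tested were called higher.

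Over the 6 combinations of class and treatment, each member had its own order. Gfpt1 ran from enterocytes at 13 h, at 246 ± 3.53 CPM (SD, n = 2), through goblet cells at 13 h (201 ± 24.5) and 25 h (179 ± 24.3), to enterocytes at 25 h (159 ± 2.04) and the DMSO enterocytes (95.2 ± 2.70) and goblet cells (93.9 ± 2.40). Its goblet cells at the 2 times overlapped in their libraries, and so did the classes in DMSO. Gnpnat1 was highest in goblet cells at 25 h, at 227 ± 23.4 CPM, and lowest in DMSO enterocytes, at 116 ± 1.07 CPM. Between these, goblet cells at 13 h (185 ± 10.0) and enterocytes at 25 h (178 ± 8.19) overlapped, as did enterocytes at 25 h and 13 h (174 ± 7.09), and DMSO goblet cells followed at 145 ± 1.00.

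For Pgm3, the goblet groups at 26.4 to 27.7 CPM all overlapped and stood above the enterocyte groups, which ran from 12.8 ± 1.19 at 13 h and 11.9 ± 0.22 at 25 h, themselves overlapping, to 10.5 ± 0.16 in DMSO. Gmppb was ordered by class first: goblet cells at 13 h (95.4 ± 0.88), in DMSO (85.3 ± 10.9) and at 25 h (80.7 ± 15.3) came above enterocytes at 13 h (53.2 ± 0.88), 25 h (38.2 ± 1.64) and DMSO (33.5 ± 0.73). Of its neighbours in this order, the DMSO and 25 h goblet cells overlapped. Uap1 ran from 152 ± 6.03 CPM in DMSO goblet cells to 116 ± 18.1 CPM in goblet cells at 25 h. Its goblet cells in DMSO and at 13 h (146 ± 17.7) overlapped, and its enterocytes at 13 h (119 ± 0.21) lay within the values of goblet cells at 25 h, with 128.8 and 103.2 CPM, a range that also held the enterocytes in DMSO (124 ± 1.94) and at 25 h (121 ± 0.56). The 3 enterocyte groups did not overlap each other on this joint scaling, whereas DMSO and 25 h overlapped when enterocytes were scaled alone.

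Whether a member responded differently by class was tested as the goblet change minus the enterocyte change. None of the 5 passed in any comparison by edgeR (0 of 5 each, where 4.81% of genes passed for 13 h against DMSO, 7.06% for 25 h against DMSO and 0.526% for 25 h against 13 h). At an unadjusted p under 0.05 there were 1, 1 and 3 members in these comparisons. Gmppb at 13 h came closest, with a difference of -0.50 ± 0.17 (95% interval -0.85 to -0.15, edgeR adjusted p = 0.0927). Gfpt1 between 25 h and 13 h differed by 0.46 ± 0.13 (interval 0.20 to 0.72, edgeR adjusted p = 0.114), and Uap1 at 25 h by -0.34 ± 0.14 (interval -0.63 to -0.06, adjusted p = 0.163). For Gnpnat1 the interval was -0.49 to 0.03 at 13 h and -0.22 to 0.28 at 25 h.

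The class the authors named tuft held 12 to 27 cells per library and is described only. Its summed tuft markers ranged from 62.7 to 544 CPM between libraries, against at most 2.92 CPM in enterocytes and 4.75 CPM in goblet cells. Enteroendocrine markers summed to 17.8 to 148 CPM in the tuft class, against at most 0.688 CPM in enterocytes and 1.54 CPM in goblet cells. Under DMSO the enteroendocrine sums of the tuft class, 66.4 and 148 CPM, were above its tuft sums, 62.7 and 75.5 CPM. In every treated library the tuft sum was the higher, at 223 and 544 CPM after 13 h and 515 and 83.4 CPM after 25 h. The class thus differed in its markers between groups, and the part of this in the values of the members was not tested. Goblet markers stood at 425 to 6855 CPM and enterocyte markers at 389 to 2258 CPM in the tuft class. The goblet sum was above the tuft sum in every library, but enterocytes too had 2347 to 3923 CPM of goblet markers. Gfpt1 was counted at 28.3 and 25.2 CPM of raw totals under DMSO, 90.6 and 127 after 13 h, and 93.3 and 72.2 after 25 h. The exact Poisson intervals of the DMSO libraries, 17.9 to 42.4 and 10.9 to 49.6, lay below those at 13 h, 68.5 to 118 and 98.1 to 161, and cover counting error only. Gnpnat1 was at 62.7 and 62.9 CPM under DMSO, 72.8 and 123 CPM after 13 h, and 85.2 and 175 CPM after 25 h, so the treated libraries differed more among themselves than from DMSO at their lower end. Gmppb was at 24.6 and 37.7 CPM under DMSO, 45.3 and 57.7 CPM after 13 h, and 40.6 and 63.9 CPM after 25 h. Every treated library lay above every DMSO library, on 10 to 30 UMIs each. The Poisson interval of DMSO replicate 2, 19.5 to 65.9, overlapped that of every treated library. That of DMSO replicate 1, 15.0 to 38.0, lay below those of replicate 2 at 13 h, 38.9 to 82.3, and at 25 h, 40.5 to 95.9. Uap1 and Pgm3 had 2 to 51 UMIs per library, and their 25 h values overlapped those under DMSO.

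Between single cells, the rise of Gfpt1 was seen both as more cells with a UMI and as more UMIs per cell. Thinned enterocytes averaged 0.457 and 0.465 UMIs of Gfpt1 under DMSO and 1.18 and 1.22 after 13 h. At a fixed depth the share of cells with a UMI moves with this mean, so the shares do not show that new cells began to express the gene. With each cell thinned to 5000 UMIs, Gfpt1 was detected in 34.4% and 33.7% of DMSO enterocytes, 59.8% and 63.6% after 13 h, and 50.5% and 51.0% after 25 h. Gnpnat1 was detected in 43.6% and 41.2%, then 56.9% and 58.2%, then 61.8% and 56.7% of enterocytes. Uap1 stayed between 42.2% and 46.2% in all 6 libraries. Pgm3 was detected in 3.71% to 6.84% of enterocytes, and Gmppb in 14.5% and 17.9% under DMSO, 22.0% and 21.4% after 13 h, and 17.5% and 16.3% after 25 h, where the 25 h and DMSO libraries overlapped.

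In goblet cells Gfpt1 was detected in 35.1% and 29.4% of DMSO cells, 56.9% and 60.0% after 13 h, and 49.0% and 61.0% after 25 h. Pgm3 was detected in 7.14% to 14.6% of goblet cells and Gmppb in 27.8% to 38.9%. For a sense of free RNA, Muc2, a goblet mucin that enterocytes should lack, was seen in 1.91% to 2.71% of thinned enterocytes, against 63.9% to 85.6% of goblet cells. Muc2 was far more abundant than the members in goblet cells, at 2.86 to 7.67 UMIs per thinned goblet cell against 0.0714 to 0.167 for Pgm3, so its share is not a background level for Pgm3. Thinning left out 42 enterocytes and 31 goblet cells that were shallower, and before thinning Gfpt1 was detected in 68.3% to 89.9% of enterocytes.

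**Figure D3:**
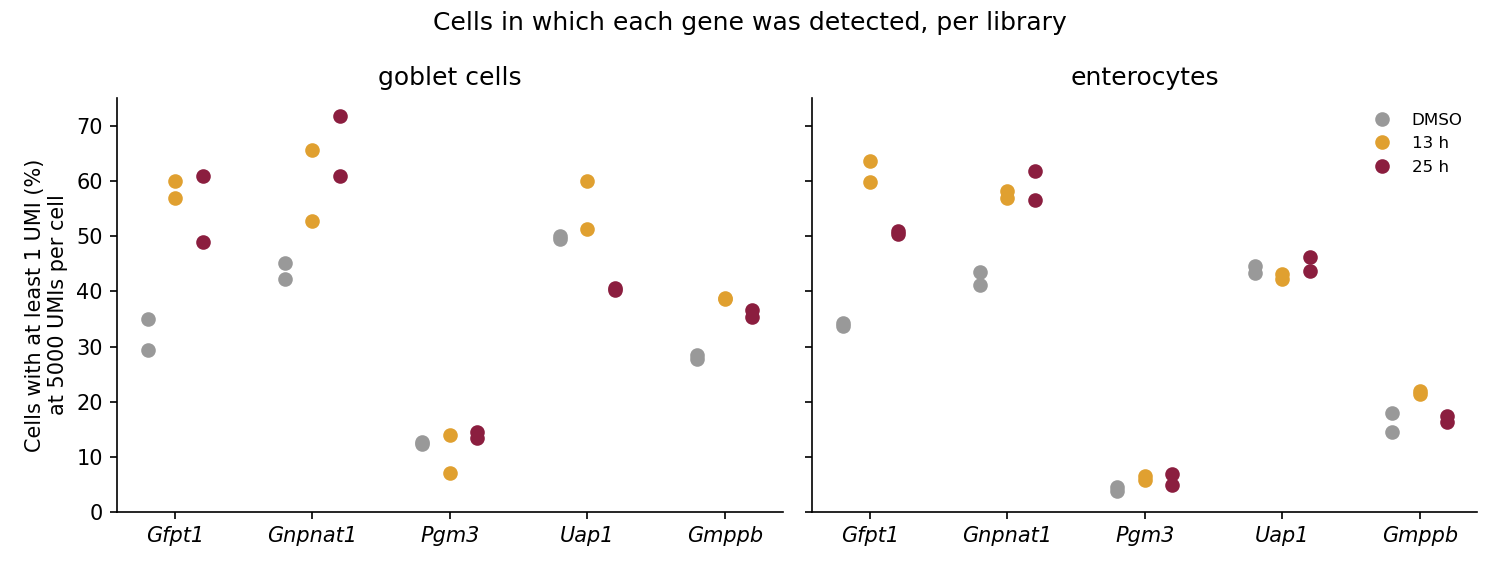
Share of cells with at least 1 UMI of each member (vertical axes, percent, from 0) after thinning each cell to 5000 UMIs, per library (points), in goblet cells and enterocytes. In enterocytes Gfpt1 lies at 33.7% to 34.4% of cells under DMSO and at 59.8% to 63.6% after 13 h, with 50.5% to 51.0% after 25 h, and Uap1 stays near 42.2% to 46.2%.

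Of the 5 members, a thinned enterocyte had on average 1.40 and 1.41 detected under DMSO, 1.87 and 1.93 after 13 h, and 1.83 and 1.73 after 25 h. Goblet cells had 1.67 and 1.66, then 2.14 and 2.31, then 2.11 and 2.12. Between pairs of members, the correlation over enterocytes of a library ran from -0.0954 to 0.0819 with a median of 0.00988 over 60 values. These describe sparse counts over 424 to 1033 cells that share a library, and no relation is read from them. Gfpt1 with Hspa5 had r of 0.0384 and 0.000304 under DMSO, 0.305 and 0.286 after 13 h, and 0.167 and 0.203 after 25 h. Over the 6 libraries, the median r with Hspa5 was 0.185 for Gfpt1, 0.0773 for Pgm3, 0.0558 for Gmppb, 0.0385 for Gnpnat1 and -0.0201 for Uap1. Thinned enterocytes averaged 0.746 and 0.991 UMIs of Hspa5 under DMSO, against 24.9 and 25.3 after 13 h. Sparse counts lower r, so these values do not compare co-variation between the groups.

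The other 65 genes of sugar nucleotide supply and use were counted in all cells by list, beside 21.4% of tested genes higher and 24.3% lower at 13 h, and 24.5% higher and 26.1% lower at 25 h. Of the 65, 61 were tested, with 23 higher and 19 lower at 13 h and 25 higher and 19 lower at 25 h. Their median change was 0.04 and 0.09 on the log2 scale, against -0.01 and 0.01 for all genes. Genes called in either direction were thus similar in number. Below, rose and fell mark an adjusted p under 0.05 in edgeR, and pairs of values are log2 changes at 13 h and 25 h.

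Among the other genes of UDP-GlcNAc synthesis, Gfpt2, the second aminotransferase, did not pass the filter on low counts and was not tested. Uap1l1, a paralog of Uap1, fell at both times, by 0.52 ± 0.05 and 0.35 ± 0.05 (edgeR, adjusted p = 4.54e-06 and 1.16e-04). Of 4 tested genes of hexosamine salvage and breakdown, 0 rose and 2 fell at each time. Nagk, the kinase that salvages GlcNAc, fell by 0.26 ± 0.06 at 13 h and 0.28 ± 0.06 at 25 h. Amdhd2, which deacetylates GlcNAc 6-phosphate, fell by 0.19 ± 0.05 at 13 h and stood at 0.09 ± 0.05 at 25 h. Gnpda1, the deaminase that reverses the Gfpt1 step, stood at -0.21 ± 0.11 at 13 h and fell by 0.41 ± 0.13 at 25 h (edgeR, adjusted p = 0.0188).

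Sialic acid is made from UDP-GlcNAc, and 2 of 3 tested genes of that branch rose at both times. Gne, which starts it, rose by 1.06 ± 0.16 and 1.39 ± 0.17, and Nans, the sialic acid synthase, by 1.02 ± 0.05 and 0.87 ± 0.05, while Cmas, which activates the product, fell by 0.15 ± 0.05 at 13 h and stood at -0.02 ± 0.05 at 25 h. On the GDP-mannose side, 1 of 4 genes rose at 13 h and 2 at 25 h. Gmppa, the regulatory partner of Gmppb, rose by 0.93 ± 0.06 and 0.55 ± 0.07 (edgeR, adjusted p = 2.45e-07 and 2.98e-05). Pmm2, the mannose mutase, stood at 0.14 ± 0.06 and then rose by 0.23 ± 0.07, whereas Mpi, which makes mannose 6-phosphate, was not called at either time.

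GDP-fucose supply had 2 genes higher and 1 lower of 4 at both times. Gmds, which converts GDP-mannose, rose by 0.50 ± 0.07 and 0.64 ± 0.07. Fuk, the fucose kinase, rose by 1.19 ± 0.38 and 1.29 ± 0.40 at a very low level, 1.63 ± 0.23 CPM at 13 h against 0.70 ± 0.35 CPM in DMSO (SD, n = 2 each). UDP-glucose, galactose and glucuronate supply had 0 higher and 4 lower of 8 at 13 h, and 2 higher and 6 lower at 25 h. Ugdh, which makes UDP-glucuronate, fell by 0.77 ± 0.05 and 1.04 ± 0.05, and Ugp2, which makes UDP-glucose, by 0.27 ± 0.05 and 0.43 ± 0.05.

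Upstream, 2 of 5 genes listed with the sources of fructose 6-phosphate rose and 3 fell at each time. The 3 included Khk, a ketohexokinase whose product is fructose 1-phosphate, at -0.72 ± 0.07 and -0.85 ± 0.08. Slc2a1, the glucose transporter, rose by 0.71 ± 0.05 and 0.66 ± 0.05, and the hexokinase Hk2 by 0.85 ± 0.05 and 0.16 ± 0.06. Hk1 fell by 0.25 ± 0.06 and 0.65 ± 0.07. Of 13 transporters, 4 rose and 4 fell at 13 h, and 5 rose and 3 fell at 25 h. Slc35b1, listed with them and known to exchange ATP for ADP across the ER membrane, rose by 1.84 ± 0.06 and 1.69 ± 0.06, and the GDP-fucose transporter Slc35c1 by 1.04 ± 0.07 and 0.91 ± 0.07. Slc35a3, which carries UDP-GlcNAc into the Golgi, fell by 0.32 ± 0.05 and 0.62 ± 0.05.

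Of the 10 genes of the dolichol-linked pathway, which use the members' products at the ER, 7 were called higher and 1 lower at 13 h, and 5 higher and 1 lower at 25 h. In enterocytes 5 of the 10 were called higher at each time, where 23.8% and 26.1% of all genes tested were, and 1 was lower at 25 h. In goblet cells 2 of 9 tested were higher at 13 h and 3 of 9 at 25 h, where 10.8% and 15.8% of all genes tested were. Besides Dpagt1, at 1.12 ± 0.08 and 0.73 ± 0.09, Alg2, a mannosyltransferase, rose by 0.97 ± 0.08 and 0.47 ± 0.09, and Alg14, a partner in the second GlcNAc addition, by 0.40 ± 0.13 and 0.93 ± 0.13. Of the 3 O-GlcNAc genes, 2 and 3 were higher. Mgea5, the enzyme that removes O-GlcNAc, rose by 0.56 ± 0.06 and 0.48 ± 0.06, and Ogt, which adds it, stood at 0.07 ± 0.05 at 13 h and rose by 0.27 ± 0.05 at 25 h. Of 6 Golgi GlcNAc transferases, 3 rose and 2 fell at 13 h, and 2 rose and 2 fell at 25 h. Mgat2 rose by 0.54 ± 0.06 and 0.28 ± 0.06, while Mgat3, the bisecting enzyme, fell by 0.56 ± 0.06 and 0.85 ± 0.07.

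**Figure D4:**
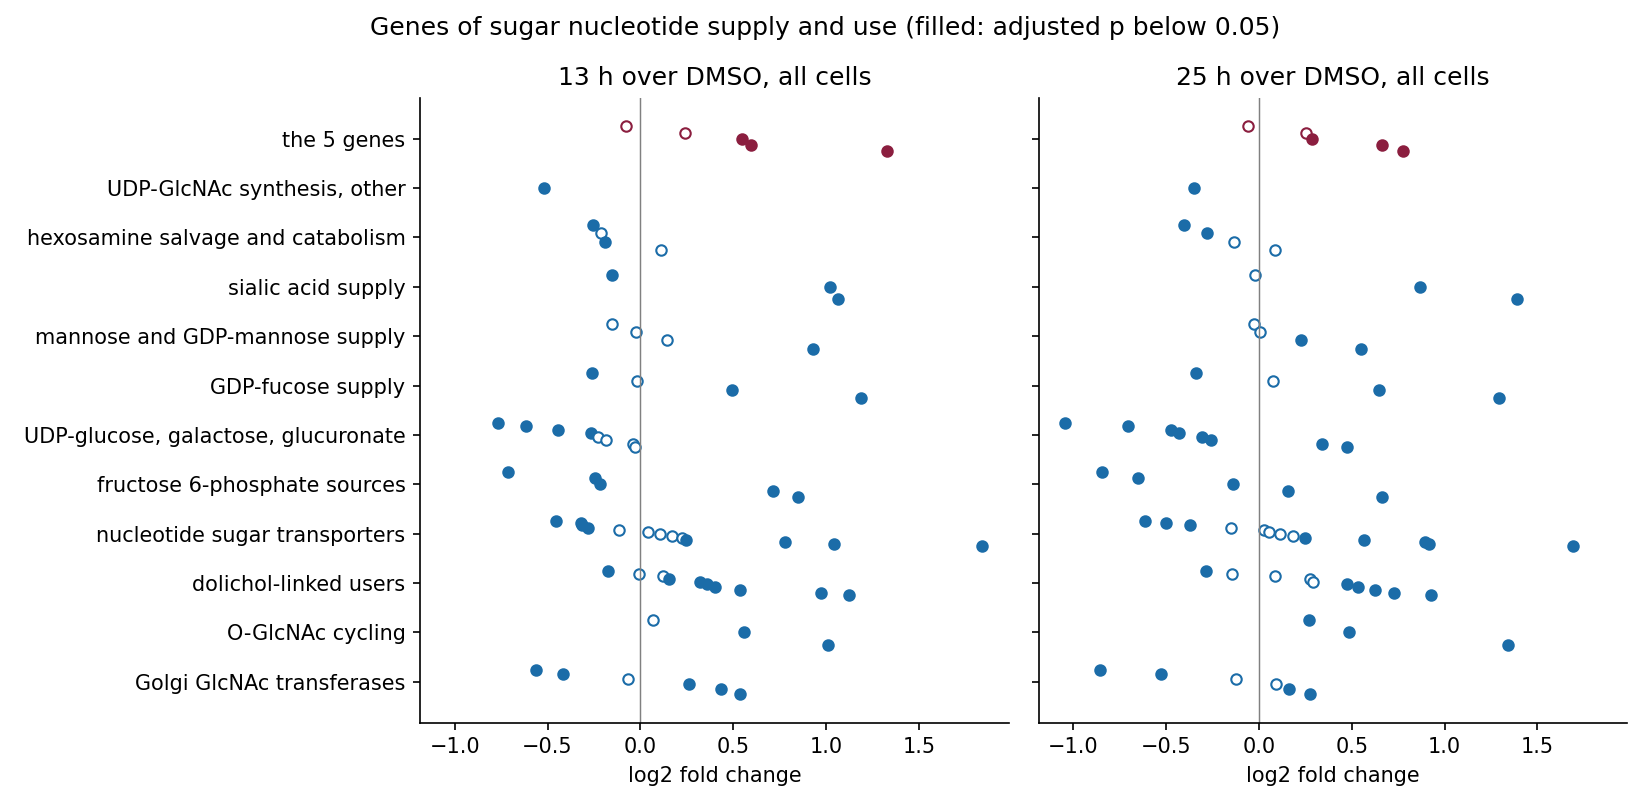
Log2 fold changes over all cells at 13 h and 25 h against DMSO (horizontal axes) of the members and the genes of each pathway list (rows), 1 point per gene, with filled points past an adjusted p of 0.05. Gfpt1 at 1.33 leads the members at 13 h, and Slc35b1 at 1.84 lies farthest to the right among the lists.

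Genes with the profile most like each member were sought over the 6 libraries, by the Euclidean distance of centred log2 CPM among 5107 tested genes with a mean of at least 20 CPM in all cells. Nearest to Gfpt1 were Tm4sf20 (distance 0.0969), Mlec, a lectin of the ER that binds glucosylated N-glycans (0.139), and Stt3a, a catalytic subunit of oligosaccharyltransferase (0.171). Their changes at 13 h were 1.33, 1.30 and 1.31 on the log2 scale. Gnpnat1 was nearest to Pole4 (0.0482), Eif3d (0.0812) and Ube2e1 (0.0882). Gmppb was nearest to Erlin1 (0.0991), Tsc22d2 (0.103) and Ufm1 (0.125), whose changes at 13 h lay between 0.54 and 0.57. Pgm3 and Uap1, whose own changes were small, had M6pr (0.0510) and Anapc1 (0.0400) as nearest genes.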

How the data were processed

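The authors deposited raw UMI counts per gene and cell, made with Cell Ranger on mm10 per the submitters' processing notes; neither a version nor the cell filter is stated there. Cells were assigned to libraries and to the authors' classes by their deposited names, and doublets were not called. The members and the 11 other gene lists were chosen with earlier results of these data known. GENCODE vM21 matched 27645 of 27998 identifiers. Of the cells, 96 were dropped for under 1000 UMIs, under 500 genes or over 25% mitochondrial UMIs. Counts were summed per library over all cells and within classes.

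All 6 sums of a class entered 1 fit in edgeR 4.0.16 (R 4.3.3) with filterByExpr, TMM scaling and the quasi-likelihood F test, with Benjamini-Hochberg adjustment over all genes tested and a threshold of 0.05. Class differences came from 1 fit of 12 sums with the sample as a block. Levels are CPM from TMM-scaled sums, so they compare a gene between groups and not genes with each other; fold changes carry the SE of the fit. The series text calls the libraries biological replicates, but no label names separate cultures or animals, so p-values measure the spread between these libraries. Replicates differed by more than counting noise (chi-square per degree of freedom 2.82 to 4.86). On counts simulated for 13 h against DMSO in all cells (11413 genes), 75 of 103 genes changed by 0.5 and 81 of 97 changed by 1 on the log2 scale were recovered, with 6 false calls. Alternatives were DESeq2 1.42.0, its size factors in edgeR, total count scaling, no low-count filter, at most 10% mitochondrial UMIs, thinning to 8000 UMIs, a replicate block and leaving out each library. Besides the members, up to 4 genes per list with the lowest adjusted p against DMSO in all cells were eligible to be named, with Hspa5 and Dpagt1 as checks.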

Additional observations from a re-analysis of the deposited data

Results flagged for a closer look

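By the edgeR test of the goblet change minus the enterocyte change, 7 of the 60 pathway list genes tested passed at 13 h against DMSO (11.7%, where 4.81% of all genes did) and 5 of the 60 at 25 h (8.33%, where 7.06% did), and 0 of the 5 members. The 8 of them that the naming rule covers are given here. At 13 h against DMSO, Dpagt1 stood at 0.16 ± 0.20 on the log2 scale in goblet cells and rose by 1.29 ± 0.09 in enterocytes, a difference of -1.18 ± 0.22 (adjusted p = 3.45e-04). With the classes scaled together, Dpagt1 had 50.9 and 42.5 CPM in DMSO goblet cells, against 16.9 and 14.0 CPM in DMSO enterocytes. At 13 h it had 48.0 and 53.0 CPM in goblet cells, against 38.5 and 37.4 CPM in enterocytes. Alg2 stood at 0.04 ± 0.21 in goblet cells and rose by 1.12 ± 0.08 in enterocytes, a difference of -1.12 ± 0.23 at 13 h (adjusted p = 9.87e-04), and its difference at 25 h was -0.89 ± 0.23 (adjusted p = 0.00914). Hk2 stood at 0.20 ± 0.17 in goblet cells and rose by 0.96 ± 0.05 in enterocytes at 13 h, with differences of -0.80 ± 0.16 at 13 h (adjusted p = 9.32e-04) and -0.59 ± 0.17 at 25 h (adjusted p = 0.0222). Nans rose in both classes at 13 h, by 0.43 ± 0.15 in goblet cells and 1.13 ± 0.06 in enterocytes, a difference of -0.74 ± 0.16 (adjusted p = 0.00189). Slc35b1 also rose in both, by 1.28 ± 0.12 in goblet cells and 1.94 ± 0.05 in enterocytes at 13 h, with differences of -0.69 ± 0.12 at 13 h (adjusted p = 1.78e-04) and -0.52 ± 0.12 at 25 h (adjusted p = 0.00373). Mgea5 stood at -0.10 ± 0.19 in goblet cells and rose by 0.61 ± 0.06 in enterocytes at 13 h, a difference of -0.75 ± 0.22 (adjusted p = 0.0326). At 25 h, Amdhd2 stood at -0.37 ± 0.19 in goblet cells and rose by 0.16 ± 0.05 in enterocytes, a difference of -0.57 ± 0.18 (adjusted p = 0.0403). Ogt ran the other way at 25 h, with a rise of 0.78 ± 0.15 in goblet cells and 0.19 ± 0.05 in enterocytes, a difference of 0.55 ± 0.15 (adjusted p = 0.0167). In DMSO, both goblet libraries lay above both enterocyte libraries for Alg2, Hk2, Nans, Slc35b1 and Mgea5, as for Dpagt1. Amdhd2 and Ogt overlapped between the classes there. The part of these untreated levels in the differences was not tested.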

How the results depend on the processing

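Of 839 values of members under alternative settings, 800 stayed on their side of the threshold, 33 lost a call and 6 gained a call. Of the 839, 29 changed sign, none of them called in either setting. Counts of members called moved by over 1.5 times in few places. With at most 10% mitochondrial UMIs, which left 3430 cells, 1 member was lower at 13 h in all cells and in enterocytes, Uap1, at -0.18 (adjusted p = 0.0477) and -0.21 (adjusted p = 0.00502), where the main count was 0. DESeq2 called 1 member higher in goblet cells at 13 h in place of 2. In DMSO, 2 members were higher in goblet cells than in enterocytes, in place of 4, with total count scaling and with at most 10% mitochondrial UMIs; total count scaling shifted the median of all genes by -0.16 there. At 8000 UMIs, the rise in members detected per enterocyte at 13 h was 0.541 in place of 0.491. On leaving out single libraries, members lower at 25 h against 13 h in all cells ranged from 1 to 2, members higher in goblet cells at 13 h from 1 to 2, members lower in goblet cells at 25 h from 0 to 1, and members higher in DMSO goblet cells from 2 to 4. The cause of these changes was not tested. Replicate numbers did not pair the samples: same-numbered deviations correlated at 0.108 between 13 h and DMSO, -0.117 between 25 h and DMSO and -0.0947 between 25 h and 13 h. With replicate number as a block, 3 members were higher in enterocytes at 13 h in place of 4, since Pgm3 missed the threshold (0.29, adjusted p = 0.0544), and the other counts of members called did not move. Adding the counts of Gm14698 to Gnpnat1 was chosen after seeing the data, and it would not restore reads assigned to neither gene. Depth limits Pgm3, which had 22 to 40 UMIs per goblet library.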
